A study of Arabidopsis thaliana with 9 samples.

Results

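Aquaporins are membrane proteins that form channels for water and, in some members, for small uncharged solutes. The Arabidopsis thaliana family was followed here as 34 gene loci of 4 subfamilies, taken from a list of loci and found by locus in the probe annotation of the arrays, out of 25665 loci with a probe. All 34 loci were found, each with 1 probe, and 30 of them could be tested among 21020 tested genes. Testing required a probe that all 3 arrays of one or more of the times put well above background. The arrays show RNA of whole Col-0 seedlings at 3 weeks of age, which had spent 1 week on agar and 2 weeks in shaken liquid medium at 22 °C in continuous light. Silver nitrate was added to the culture at 0.1 mM, and harvests followed at once (0 h) and at the later times of 48 h and 72 h. Each time had 3 arrays, from 3 independent experiments with different plants. The seedlings of the 0 h group were the only reference, so that silver and additional time in culture cannot be told apart. Each gene symbol is written with a hyphen before its last number, as in protein databases (PIP2-4), where Arabidopsis usage often has a semicolon.

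The plasma membrane intrinsic proteins, PIPs, sit in the outer membrane of the cell and are its main water channels. PIP1 proteins reach that membrane mostly in tetramers with PIP2 proteins. The tonoplast intrinsic proteins, TIPs, sit in the membrane of the vacuole, where some also conduct ammonia or hydrogen peroxide. The NOD26-like intrinsic proteins, NIPs, carry mainly solutes such as boric acid, and the small basic intrinsic proteins, SIPs, are found in the endoplasmic reticulum. Silver ions are known to block water flow through plant aquaporins in isolated membranes. The arrays measure transcripts only, and neither protein nor water flow.

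Across the 9 arrays, 65.4% to 68.3% of spots exceeded the background, and the 75th percentile of an array ranged from 1611 to 3732 intensity units. Slide 1 held replicate 1 of each time and slide 2 held replicate 2. The third replicates of 0 h and 48 h shared slide 3, and that of 72 h was alone on slide 4. Signals are log2 ratios of the processed signal to the 75th percentile of its array, so that 0 marks that percentile and negative values lie below it. Levels of different probes are not compared, and the difference between a pair of probes on one array is used only for how it changed over time. Changes are differences of these log2 signals ± standard error, fitted with limma to all 9 arrays, and calls required an adjusted p below 0.05 over all tested genes. As whole seedlings were used, a loss of cells of a type and less RNA per cell cannot be told apart in any change below.

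After 48 h more aquaporin genes were called lower than were called higher against 0 h. Of 30 tested members 11 fell and 2 rose, while 17 did not pass the test. Over all tested genes, 15.8% were called lower and 14.2% higher, 30% in all. The median change of the members was -0.36, against 0.015 over all genes. A fall of at least 2-fold was called in 4 members (9.08% of all genes), PIP2-4, TIP2-1, TIP2-2 and TIP2-3, and a rise of that size in 1, SIP1-2 (8.03% of all genes).

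After 72 h more aquaporin genes were called lower than after 48 h, although none was called between 48 h and 72 h. Of the 30 members 16 fell and 2 rose, and 12 did not pass the test. Over all genes, 19.4% were called lower and 16.9% higher, 36.3% in all. The median change of the members was -0.66, against 0.0072 over all genes. One of the falls, that of TIP3-1, is in a gene that passed the filter on dim probes through the 0 h arrays alone, and the 29 members above background on all 9 arrays held the other 15. A fall of at least 2-fold was called in 11 members, TIP3-1 among them (11.8% of all genes), and a rise of that size in 1 (9.2% of all genes). The 11 members that fell by 48 h were also called lower at 72 h, and the 2 that rose by 48 h, SIP1-2 and NIP1-2, were also called higher, where both comparisons use the same 0 h arrays. An F test over the 3 times called 17 of the 30 members, TIP3-1 among them, against 32.8% of all genes.

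**Figure D1:**
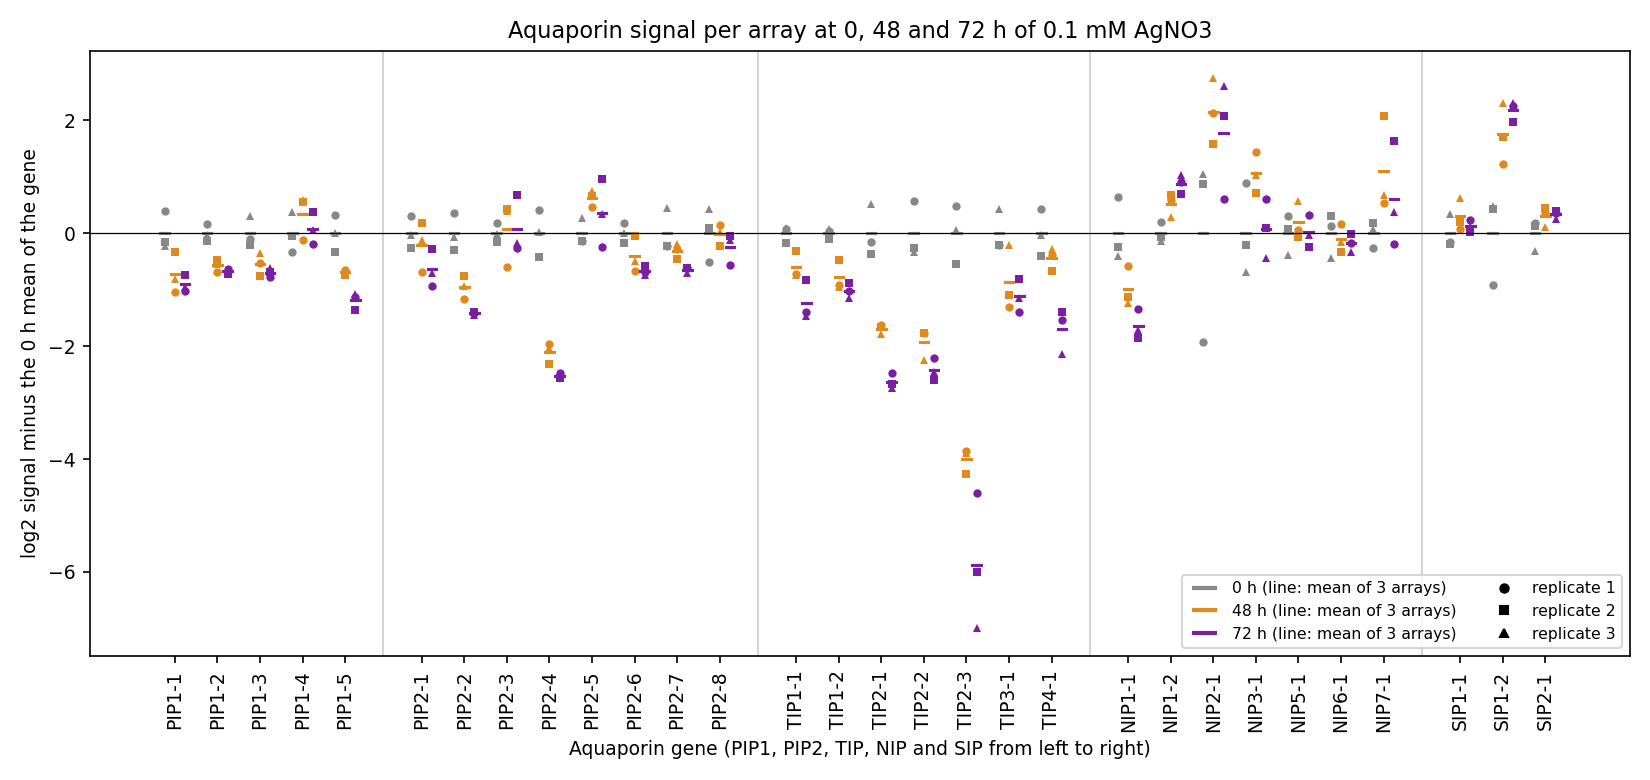
Log2 signal of the 30 tested aquaporin genes on each array minus the 0 h mean of the gene (vertical axis) for each gene (horizontal axis, ordered by subfamily), with 1 point per array, coloured by time and shaped by replicate, and a line at the mean of 3 arrays. The 3 arrays of 48 h and of 72 h lie under those of 0 h for TIP2-1, TIP2-2, TIP2-3 and PIP2-4, and above them for SIP1-2 and NIP1-2.

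The arrays of 72 h lay wholly under those of 0 h in 17 members (25.1% of all genes) and wholly above them in 3 (24.8%). The 17 include TIP3-1, which could be tested only through the 0 h arrays. At 48 h these counts were 12 (21.7%) and 5 (21.4%). The 13 members called at 48 h had the same sign of change on each slide that held both times, and so did the 18 called at 72 h. For 72 h only slides 1 and 2 give such a value, since slide 4 held no 0 h array. Of the members not called, 11 of 17 at 48 h and 8 of 12 at 72 h also kept one sign. The calls were made on these same arrays, so the shared signs are no separate support.

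The subfamilies differed in how many members were called. Of the 6 TIP genes above background on all 9 arrays 4 fell by 48 h and 6 by 72 h, with median changes of -1.24 and -2.06. The 7th tested TIP gene, TIP3-1, fell by 72 h and is described apart, because it could be tested only through the 0 h arrays. In PIP1, 4 of 5 fell at each time (medians -0.57 and -0.70). In PIP2, 2 of 8 fell by 48 h and 4 of 8 by 72 h (medians -0.26 and -0.64). In NIP, 1 of 7 fell and 1 rose at each time (medians 0.52 and 0.083), and in SIP 1 of 3 rose at each time (medians 0.30 and 0.34). Over all tested genes, 15.8% were called lower and 14.2% higher at 48 h, and 19.4% and 16.9% at 72 h. In this fit the NIP counts lie near these shares, and the subfamilies are small. With the replicate number as a block, NIP2-1, NIP3-1 and NIP7-1 were called higher at 48 h as well. The difference between subfamilies was not tested.

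**Figure D2:**
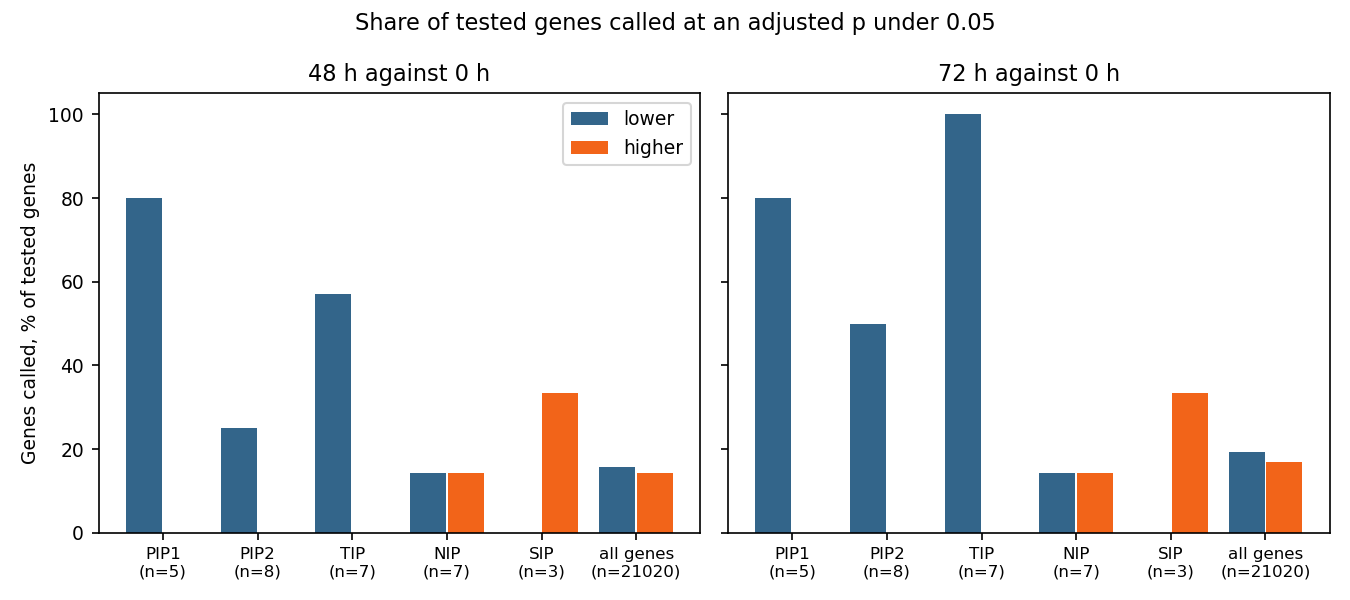
Share of tested genes called lower (blue) or higher (orange) at an adjusted p under 0.05, in percent (vertical axis), for each subfamily with its number of tested genes and for all 21020 tested genes (horizontal axis), at 48 h (left) and 72 h (right). At 72 h the bar for lower TIP genes covers all 7 tested, of which TIP3-1 could be tested only through the 0 h arrays, while 19.4% of all genes were called lower.

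The largest fall of the family, at both times, was in a gene for a vacuolar channel. TIP2-3 (AT5G47450), whose product conducts ammonia and which is known mainly from roots, had log2 signals of 1.21, 0.17 and 0.78 on replicates 1, 2 and 3 of 0 h. At 48 h its signals were -3.14, -3.54 and -3.18, and at 72 h they were -3.88, -5.29 and -6.28. The 3 times did not overlap, and the 72 h arrays were spread most widely. TIP2-3 fell 16.1-fold by 48 h (-4.01 ± 0.53, adjusted p = 0.000916) and 58.4-fold by 72 h (-5.87 ± 0.53, adjusted p = 0.000116). Within slides 1 and 2 the 72 h change was -5.09 and -5.46.

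TIP2-1 (AT3G16240), a vacuolar water and ammonia channel known mainly from shoots, was at 5.81, 5.61 and 6.50 at 0 h. It was at 4.34, 4.31 and 4.19 at 48 h and at 3.50, 3.31 and 3.22 at 72 h. Each time lay wholly under the one before it. The gene fell 3.23-fold by 48 h (-1.69 ± 0.22, adjusted p = 0.000783) and 6.18-fold by 72 h (-2.63 ± 0.22, adjusted p = 8.69e-05). TIP2-2 (AT4G17340), a root channel of the same clade, had signals of 3.46, 2.63 and 2.56 at 0 h, 1.12, 1.11 and 0.64 at 48 h, and 0.68, 0.28 and 0.42 at 72 h. Both later times lay under 0 h, while 48 h and 72 h overlapped. Its fall was 3.8-fold by 48 h (-1.93 ± 0.26, adjusted p = 0.00094) and 5.36-fold by 72 h (-2.42 ± 0.26, adjusted p = 0.000237).

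TIP4-1 (AT2G25810), another vacuolar channel known from roots, was called at 72 h and not at 48 h. Its signals were -0.61, -1.45 and -1.07 at 0 h, -1.43, -1.70 and -1.32 at 48 h, and -2.58, -2.43 and -3.18 at 72 h. The 48 h arrays overlapped with those of 0 h, and the 72 h arrays lay under both. The change at 48 h did not pass the test (-0.45 ± 0.26, adjusted p = 0.239, and -0.23 without 0 h replicate 1), and by 72 h the gene fell 3.23-fold (-1.69 ± 0.26, adjusted p = 0.00134).

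TIP1-1 (AT2G36830) and TIP1-2 (AT3G26520) encode the common vacuolar channels of vegetative tissue, which also conduct hydrogen peroxide. TIP1-1 had signals of 5.41, 5.15 and 5.43 at 0 h, 4.61, 5.01 and 4.59 at 48 h, and 3.93, 4.50 and 3.86 at 72 h. TIP1-2 had signals of 6.36, 6.22 and 6.39 at 0 h, 5.41, 5.85 and 5.37 at 48 h, and 5.29, 5.44 and 5.17 at 72 h. Both genes were lower on every later array than on any 0 h array. TIP1-1 did not pass the test at 48 h (-0.59 ± 0.20, adjusted p = 0.0570) and fell 2.35-fold by 72 h (-1.23 ± 0.20, adjusted p = 0.00188). TIP1-2 fell 1.72-fold by 48 h (-0.78 ± 0.16, adjusted p = 0.00654) and 2.03-fold by 72 h (-1.02 ± 0.16, adjusted p = 0.00137). The TIP1-1 change at 48 h passed the test with array median scaling (adjusted p = 0.0381).

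TIP3-1 (AT1G73190) encodes a channel of seed storage vacuoles. Its probe was well above background on 3 arrays of 0 h, 1 of 48 h and 2 of 72 h. The signals were -6.74, -6.74 and -6.10 at 0 h, -7.84, -7.62 and -6.74 at 48 h, and -7.92, -7.34 and -7.67 at 72 h. Only the 72 h arrays lay wholly under 0 h, and the gene fell 2.17-fold by 72 h (-1.12 ± 0.31, adjusted p = 0.0223), after -0.87 ± 0.31 at 48 h (adjusted p = 0.0656, and 0.0319 with the replicate number as a block). Its call at 72 h ended without 0 h replicate 3 (adjusted p = 0.0703), 72 h replicate 1 (0.0720) or 72 h replicate 3 (0.0641), and with quantile normalization (0.0659). It entered the test through the 0 h arrays, where it was high.

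Among the plasma membrane channels, PIP2-4 (AT5G60660), a root water channel, had the largest change. Its signals were 2.02, 1.18 and 1.62 at 0 h, -0.36, -0.70 and -0.42 at 48 h, and -0.87, -0.96 and -0.91 at 72 h. The 3 times did not overlap. PIP2-4 fell 4.29-fold by 48 h (-2.10 ± 0.21, adjusted p = 0.000238) and 5.74-fold by 72 h (-2.52 ± 0.21, adjusted p = 8.32e-05). PIP2-2 (AT2G37170), also a root water channel, was at 4.0, 3.36 and 3.59 at 0 h, 2.48, 2.90 and 2.72 at 48 h, and 2.25, 2.26 and 2.20 at 72 h. These times did not overlap either, and the 72 h arrays lay close together at 2.24 ± 0.03 (SD, n = 3). PIP2-2 fell 1.93-fold by 48 h (-0.95 ± 0.18, adjusted p = 0.00504) and 2.67-fold by 72 h (-1.41 ± 0.18, adjusted p = 0.000569).

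PIP2-6 (AT2G39010) and PIP2-7 (AT4G35100), 2 further plasma membrane water channels, passed the test at 72 h alone. PIP2-6 had signals of 4.18, 3.83 and 4.0 at 0 h, 3.33, 3.96 and 3.51 at 48 h, and 3.31, 3.41 and 3.26 at 72 h. PIP2-7 had signals of 4.41, 4.41 and 5.09 at 0 h, 4.35, 4.18 and 4.45 at 48 h, and 4.02, 4.02 and 3.93 at 72 h. In both genes the 48 h arrays overlapped with 0 h and the 72 h arrays did not. The changes at 48 h were -0.40 ± 0.18 and -0.31 ± 0.19 (adjusted p = 0.122 and 0.273). PIP2-6 fell 1.59-fold by 72 h (-0.67 ± 0.18, adjusted p = 0.0176) and PIP2-7 fell 1.56-fold (-0.64 ± 0.19, adjusted p = 0.0297). The PIP2-6 call ended without 72 h replicate 3 (adjusted p = 0.0628), and both calls ended with quantile normalization, with the deposited value table and with the slide as a fixed block. Of 5 scalings, the one reported included, the PIP2-6 call held in 3 and the PIP2-7 call in 2. The PIP2-7 call ended without any one of the 72 h arrays (adjusted p from 0.0646 to 0.0921), and its change was -0.42 without 0 h replicate 3.

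The other 4 PIP2 genes were not called at either time. PIP2-1 (AT3G53420), a water channel of roots and guard cells, had signals of 4.87, 4.30 and 4.52 at 0 h, 3.88, 4.74 and 4.45 at 48 h, and 3.62, 4.29 and 3.86 at 72 h. Its 72 h arrays lay under those of 0 h by a narrow margin, with a change of -0.64 ± 0.26 (adjusted p = 0.0923), after -0.21 ± 0.26 at 48 h (adjusted p = 0.612). PIP2-5 (AT3G54820), which is known to rise in drought when most PIP genes fall, was at -4.90, -4.90 and -4.48 at 0 h, -4.29, -4.10 and -4.00 at 48 h, and -5.0, -3.81 and -4.41 at 72 h. Its 48 h arrays lay wholly above 0 h and its 72 h arrays on both sides, with changes of 0.63 ± 0.28 (adjusted p = 0.126) and 0.36 ± 0.28 (adjusted p = 0.355). PIP2-8 (AT2G16850) ranged from -1.16 to -0.22 at 0 h, -0.87 to -0.50 at 48 h and -1.21 to -0.70 at 72 h, with overlap throughout, and changed by -0.016 ± 0.25 and -0.24 ± 0.25 (adjusted p = 0.972 and 0.484).

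PIP2-3 (AT2G37180), first described as the desiccation-responsive gene RD28, lies next to PIP2-2 on chromosome 2 in the reference annotation. Its signals were 1.12, 0.79 and 0.93 at 0 h, 0.35, 1.37 and 1.33 at 48 h, and 0.69, 1.62 and 0.76 at 72 h. All 3 times overlapped, and the changes were 0.076 ± 0.33 and 0.079 ± 0.33 (adjusted p = 0.894 and 0.875). The log2 signal of PIP2-2 minus that of PIP2-3 on the same array, which does not depend on the scaling factor of the array, was 2.71 ± 0.16 (SD, n = 3) at 0 h, 1.68 ± 0.40 at 48 h and 1.21 ± 0.50 at 72 h. It lay between 2.57 and 2.88 on the 0 h arrays and between 0.64 and 1.56 on the 72 h arrays, without overlap. The pair was chosen with these values known, so no test was made. Whether the 2 probes tell these similar transcripts apart was not tested.

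In the PIP1 subfamily 4 of 5 genes fell at both times. PIP1-5 (AT4G23400) had signals of 3.32, 2.66 and 2.99 at 0 h, 2.33, 2.25 and 2.30 at 48 h, and 1.86, 1.64 and 1.92 at 72 h. Its 3 times did not overlap, and it fell 1.62-fold by 48 h (-0.70 ± 0.17, adjusted p = 0.0168) and 2.27-fold by 72 h (-1.18 ± 0.17, adjusted p = 0.00105). PIP1-1 (AT3G61430) was at 5.10, 4.55 and 4.50 at 0 h, 3.68, 4.38 and 3.91 at 48 h, and 3.70, 3.97 and 3.76 at 72 h. The later times overlapped with each other but not with 0 h, and the gene fell 1.65-fold (-0.73 ± 0.22, adjusted p = 0.0396) and 1.88-fold (-0.91 ± 0.22, adjusted p = 0.0135).

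PIP1-2 (AT2G45960), which contributes to water flow through leaves and roots, was at 5.10, 4.81 and 4.90 at 0 h, 4.25, 4.46 and 4.40 at 48 h, and 4.30, 4.21 and 4.28 at 72 h. PIP1-3 (AT1G01620) was at 5.31, 5.21 and 5.72 at 0 h, 4.88, 4.65 and 5.06 at 48 h, and 4.63, 4.72 and 4.79 at 72 h. In both genes the 48 h and 72 h arrays overlapped with each other and lay under 0 h. PIP1-2 fell 1.48-fold by 48 h (-0.57 ± 0.12, adjusted p = 0.00939) and 1.6-fold by 72 h (-0.67 ± 0.12, adjusted p = 0.00332), and PIP1-3 fell 1.46-fold (-0.55 ± 0.17, adjusted p = 0.0404) and 1.62-fold (-0.70 ± 0.17, adjusted p = 0.0125).

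The exception was PIP1-4 (AT4G00430), which is known, like PIP2-5, to rise in drought. Its signals were 2.91, 3.20 and 3.61 at 0 h, 3.12, 3.80 and 3.83 at 48 h, and 3.04, 3.62 and 3.30 at 72 h. The times overlapped, and the changes of 0.34 ± 0.26 and 0.084 ± 0.26 did not pass the test (adjusted p = 0.371 and 0.829). With quantile normalization the 48 h calls of PIP1-1, PIP1-2, PIP1-3 and PIP1-5 ended (adjusted p = 0.179, 0.186, 0.307 and 0.0502), as did the 72 h calls of PIP1-1, PIP1-2 and PIP1-3 (0.0671, 0.0809 and 0.105). With the deposited value table the same 48 h calls ended as well (0.119, 0.0650, 0.0769 and 0.0525). Of 5 scalings, the one reported included, the 48 h calls of PIP1-1 and PIP1-3 held in 2 each. The 72 h call of PIP1-1 held in 3. The 48 h call of PIP1-1 ended with the replicate number as a block (adjusted p = 0.0547) and in 7 of 9 settings that leave out 1 array, that of PIP1-3 in 6 of 9, and that of PIP1-5 without 48 h replicate 2 (adjusted p = 0.0546).

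**Figure D3:**
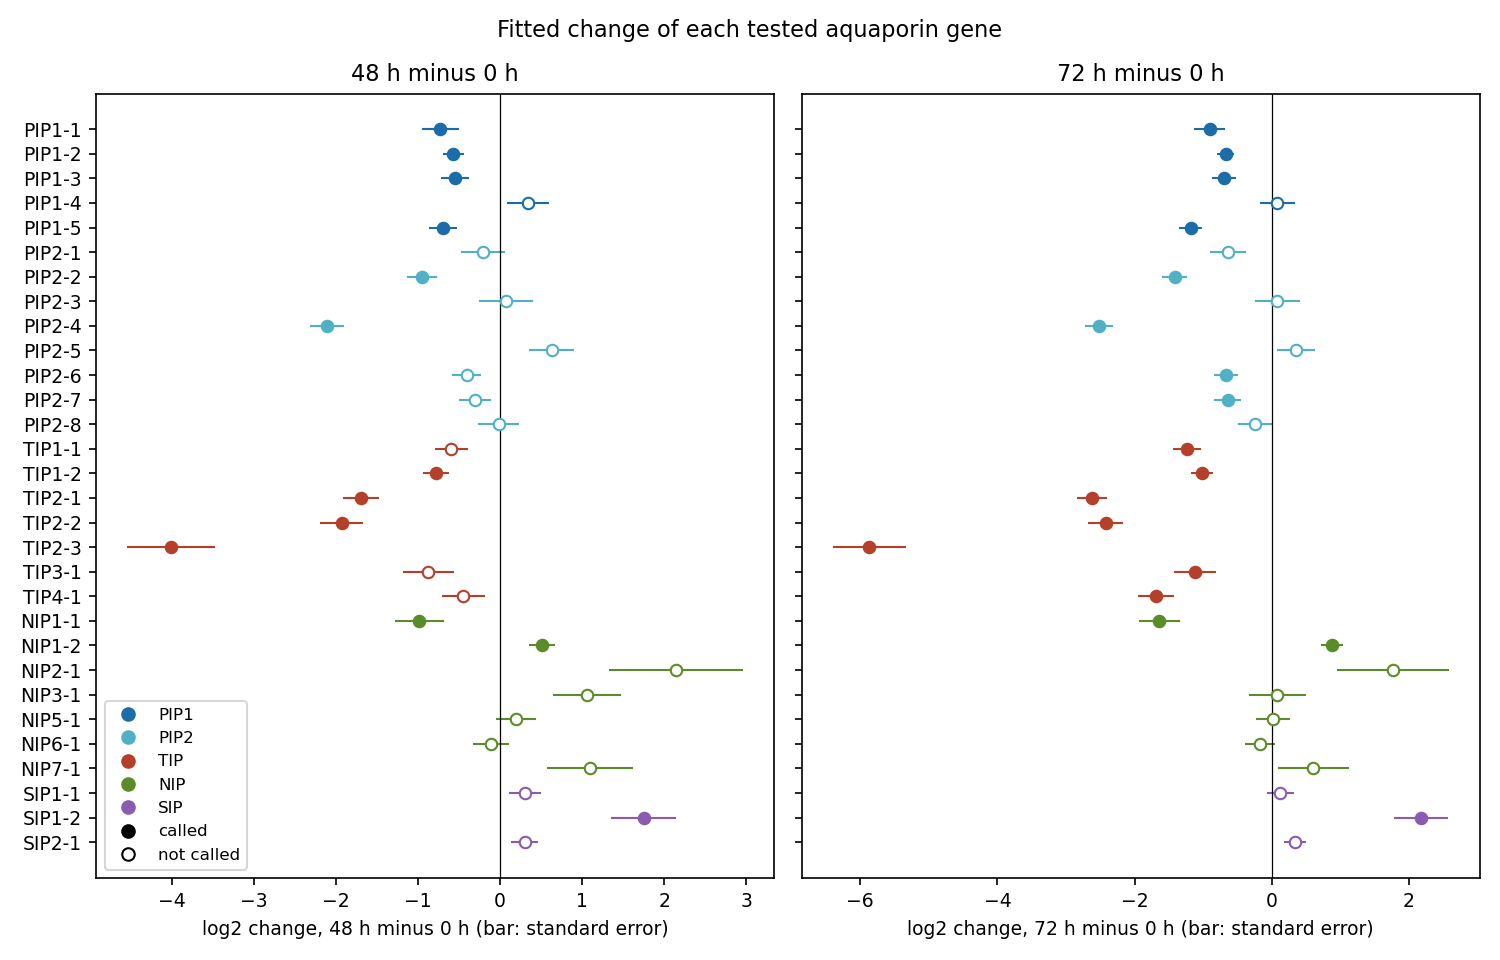
Fitted log2 change of each tested aquaporin gene (rows, coloured by subfamily) at 48 h (left) and 72 h (right) against 0 h, with bars of 1 standard error, and filled points for genes called at an adjusted p under 0.05. The TIP genes lie left of 0 in both panels, with TIP2-3 farthest at -4.01 and -5.87, and SIP1-2 reaches 1.75 and 2.17.

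Of 7 tested NIP genes 1 was called lower and 1 higher at each time, and 5 were not called. NIP1-1 (AT4G19030), a root channel that also lets arsenite through, had signals of -0.07, -0.95 and -1.12 at 0 h, -1.29, -1.84 and -1.94 at 48 h, and -2.06, -2.57 and -2.42 at 72 h. Each time lay under the one before it. The gene fell 1.97-fold by 48 h (-0.98 ± 0.30, adjusted p = 0.0367) and 3.11-fold by 72 h (-1.64 ± 0.30, adjusted p = 0.00308). NIP1-2 (AT4G18910), whose product carries aluminium malate in roots, was at -1.61, -1.88 and -1.94 at 0 h, -1.22, -1.13 and -1.52 at 48 h, and -0.89, -1.11 and -0.78 at 72 h. Here each time lay above the one before it. NIP1-2 rose 1.43-fold by 48 h (0.52 ± 0.16, adjusted p = 0.0389) and 1.84-fold by 72 h (0.88 ± 0.16, adjusted p = 0.00304).

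NIP1-1 and NIP1-2 lie on chromosome 4, with NIP1-2 the 16th gene from NIP1-1 in the reference annotation. Within an array, the log2 signal of NIP1-2 minus that of NIP1-1 was -1.10 ± 0.39 (SD, n = 3) at 0 h, 0.40 ± 0.32 at 48 h and 1.42 ± 0.24 at 72 h. The 3 times did not overlap, with values from -1.54 to -0.82 at 0 h, from 0.075 to 0.71 at 48 h and from 1.17 to 1.64 at 72 h. As for the other pair, the choice was made with the values known and no test was made. The 48 h calls of both genes were less stable than those at 72 h: leaving out 1 array ended that of NIP1-1 in 5 of 9 settings (highest adjusted p = 0.115) and that of NIP1-2 in 6 of 9 (highest adjusted p = 0.127), and neither 72 h call in any of them. The 48 h call of NIP1-1 also ended with the deposited value table (adjusted p = 0.0690), and that of NIP1-2 with median scaling (0.0950), quantile normalization (0.0580) and normexp (0.0888). Both ended with no filter on dim probes (0.0531 and 0.0562) and in a fit of only the times compared (0.0694 and 0.0733).

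**Figure D4:**
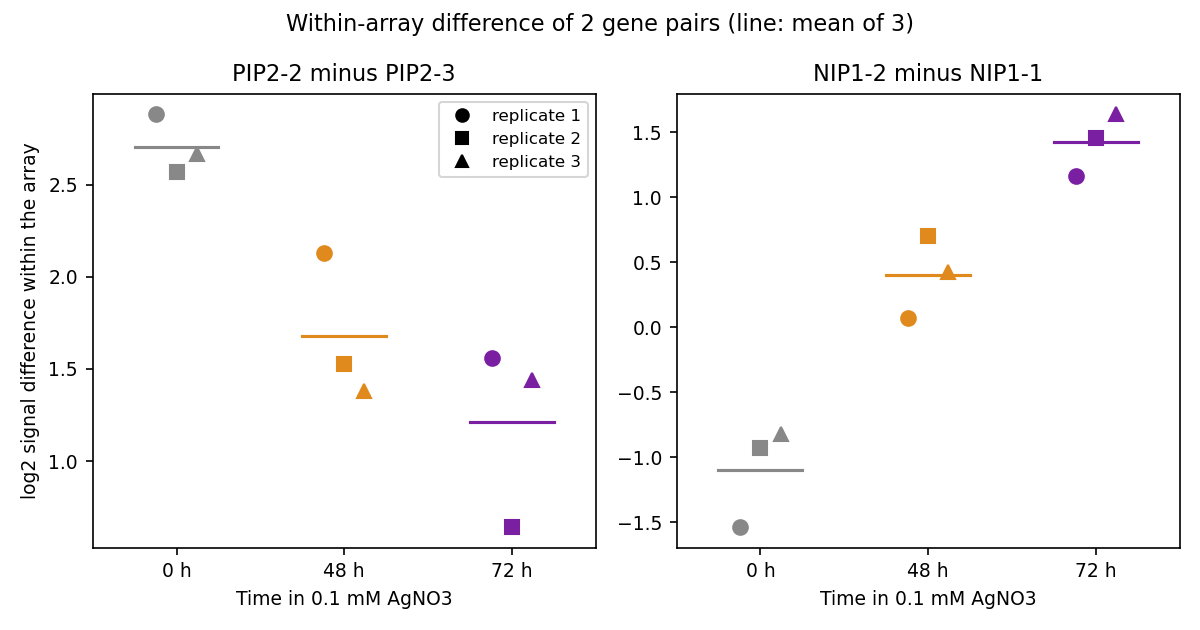
Log2 signal difference between the 2 genes of a pair on the same array (vertical axes) against time in silver nitrate (horizontal axes), for PIP2-2 minus PIP2-3 (left) and NIP1-2 minus NIP1-1 (right), with 1 point per array shaped by replicate and a line at the mean of 3. The left difference goes from a mean of 2.71 at 0 h to 1.21 at 72 h, and the right one from -1.10 to 1.42.

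NIP2-1 (AT2G34390), a lactic acid channel that is known to be induced by low oxygen, had signals of -5.35, -2.55 and -2.38 at 0 h, -1.30, -1.85 and -0.68 at 48 h, and -2.82, -1.35 and -0.81 at 72 h. Replicate 1 of 0 h lay far under the other 0 h arrays. The changes of 2.15 ± 0.82 and 1.77 ± 0.82 did not pass the test (adjusted p = 0.0807 and 0.128), and without that array they were 1.19 and 0.81. With the replicate number as a block NIP2-1 was called at 48 h (adjusted p = 0.0284).

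NIP3-1 (AT1G31885), which takes part in arsenite uptake, was at -4.42, -5.51 and -5.99 at 0 h, -3.87, -4.59 and -4.28 at 48 h, and -4.71, -5.22 and -5.74 at 72 h. Its 48 h arrays lay above those of 72 h and overlapped with 0 h, and the changes were 1.06 ± 0.42 at 48 h (adjusted p = 0.0891) and 0.083 ± 0.42 at 72 h (adjusted p = 0.897). NIP7-1 (AT3G06100), known from anthers, was at -3.92, -3.47 and -3.57 at 0 h, -3.11, -1.58 and -2.98 at 48 h, and -3.85, -2.02 and -3.28 at 72 h. Replicate 2 was the highest array of each later time, and only the 48 h arrays lay wholly above 0 h. The changes were 1.10 ± 0.52 (adjusted p = 0.151) and 0.61 ± 0.52 (adjusted p = 0.397). Without 48 h replicate 2 the first was 0.61, and without 72 h replicate 2 or 1 the second was 0.091 or 1.01. With the replicate number as a block, NIP3-1 and NIP7-1 were called at 48 h (adjusted p = 0.0152 and 0.0294).

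The boric acid channels were not called. NIP5-1 (AT4G10380), which brings boric acid into roots, had signals of 0.36, 0.13 and -0.34 at 0 h, 0.11, -0.01 and 0.63 at 48 h, and 0.38, -0.18 and 0.01 at 72 h. NIP6-1 (AT1G80760), which moves boric acid in shoot nodes, had signals of -0.38, -0.21 and -0.95 at 0 h, -0.34, -0.85 and -0.66 at 48 h, and -0.69, -0.52 and -0.85 at 72 h. All times overlapped in both genes. The changes of NIP5-1 were 0.19 ± 0.25 and 0.020 ± 0.25 (adjusted p = 0.614 and 0.960), and those of NIP6-1 were -0.11 ± 0.22 and -0.17 ± 0.22 (adjusted p = 0.769 and 0.576).

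The largest rise among called members was in the endoplasmic reticulum subfamily. SIP1-2 (AT5G18290) had signals of -2.88, -1.53 and -1.49 at 0 h, -0.74, -0.26 and 0.34 at 48 h, and 0.29, -0.01 and 0.33 at 72 h. Both later times lay above 0 h and overlapped with each other. SIP1-2 rose 3.36-fold by 48 h (1.75 ± 0.40, adjusted p = 0.0112) and 4.51-fold by 72 h (2.17 ± 0.40, adjusted p = 0.00326). Its relative SIP1-1 (AT3G04090) was at 1.42, 1.38 and 1.90 at 0 h, 1.65, 1.76 and 2.20 at 48 h, and 1.81, 1.59 and 1.68 at 72 h. SIP2-1 (AT3G56950) was at 1.73, 1.68 and 1.23 at 0 h, 1.90, 1.99 and 1.66 at 48 h, and 1.91, 1.94 and 1.80 at 72 h. Of these only the 72 h arrays of SIP2-1 lay wholly above 0 h. SIP1-1 and SIP2-1 changed by 0.30 ± 0.19 and 0.30 ± 0.16 at 48 h (adjusted p = 0.284 and 0.205) and by 0.13 ± 0.19 and 0.34 ± 0.16 at 72 h (adjusted p = 0.653 and 0.146). The SIP1-2 call at 48 h ended with slides 3 and 4 left out (adjusted p = 0.0738).

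The 4 members that could not be tested are known mainly from pollen or seeds. The probes of TIP1-3 (AT4G01470), a pollen vacuole channel, of TIP3-2 (AT1G17810), a seed vacuole channel, and of NIP4-1 (AT5G37810), a pollen channel, were well above background on no array. TIP5-1 (AT3G47440), a pollen channel, was above background on 1 of 9 arrays.

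No aquaporin was called between 48 h and 72 h, and no gene at all was called in this comparison (0% of tested genes) with limma. The smallest adjusted p of a member was 0.171, for TIP4-1 (-1.24 ± 0.26). At an unadjusted p under 0.05, 7 members were lower at 72 h and 1 was higher, out of 30, against 9.18% of all genes in either direction. The change from 48 h to 72 h was below 0 in 26 of 30 members, with a median of -0.27, against -0.0097 over all genes. The members were read on the same arrays, so these signs are not independent. The 72 h arrays lay wholly under the 48 h arrays in 10 members (9.52% of all genes) and wholly above them in 1 (8.08%), NIP1-2.

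Counts of companion genes are set against the shares of all tested genes, 15.8% lower and 14.2% higher at 48 h and 19.4% lower and 16.9% higher at 72 h. Proton pumps energise the membranes in which PIPs and TIPs sit. Of 10 tested plasma membrane proton pump genes, which energise uptake, 2 fell by 48 h and 1 by 72 h, AHA11 (-1.30 ± 0.27, adjusted p = 0.00547). Of 7 vacuolar proton pump subunit genes none was called at 48 h with limma, and at 72 h the vacuolar pyrophosphatase gene VHP1 fell by 0.57 ± 0.18 (adjusted p = 0.0352). The median change of these 2 lists at 72 h was -0.034 and -0.094, and their counts lie near or below the shares of all genes. Of 6 tested boron exporter genes, which act with the boric acid channels, 2 rose and 1 fell by 72 h: BOR5 (1.69 ± 0.34) and BOR3 (0.52 ± 0.13) rose, and BOR2 fell (-1.19 ± 0.17), with a list median of -0.48.

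Among 6 genes for the traffic and breakdown of PIP proteins, 2 rose by 48 h (14.2% of all genes). By 72 h 3 rose and 1 fell (16.9% and 19.4% of all genes), with a median of 0.64 at 72 h. TSPO, which binds PIP2-7 and steers it to degradation, rose 2.82-fold (1.49 ± 0.23, adjusted p = 0.00148). The ubiquitin ligase genes RMA3 (0.74 ± 0.17) and RMA1 (0.61 ± 0.15) rose as well. A relative of these ligases in pepper is known to drive the breakdown of PIP2-1. The fall was in SYP121, a syntaxin that brings PIPs to the plasma membrane (-0.55 ± 0.17, adjusted p = 0.0362). Of 8 water deficit marker genes, 2 rose and 1 fell by 48 h, and 1 rose and 1 fell by 72 h, counts near the shares of all genes. By 72 h RD20 rose 6.17-fold (2.63 ± 0.58, adjusted p = 0.00819) and the dehydrin gene ERD10 fell (-1.62 ± 0.13, adjusted p = 8e-05), with a list median of 0.065.

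Markers of cell types in which aquaporins are known were read beside the family. All 9 root hair markers, 12 root endodermis and stele markers and 6 leaf photosynthesis markers were above background on the 3 arrays of 0 h, so that root and leaf of the labelled whole seedlings were both represented. Of the root hair markers 7 were lower at 48 h and 8 at 72 h, against 15.8% and 19.4% of all genes, although 5 of the 9 passed the filter only through the 0 h arrays and therefore had to be lower later. Of the 2 above background on all 9 arrays, COBL9 was lower at each time and RHD6 was called at neither (-0.14 ± 0.34 at 72 h, adjusted p = 0.775). For the whole list, those 5 included, the summed signal was 1.57 to 3.15 at 0 h, 0.258 to 0.279 at 48 h and 0.288 to 0.475 at 72 h. Its unit is the array's 75th percentile. PRP1, PRP3 and RHS18, which are among those 5, were above background on no array of 72 h. RHS18 was at least 47.4-fold lower at 72 h than at 0 h, a fall whose direction the filter fixed. The root hair gene COBL9 fell by 5.70 ± 0.46 by 72 h.

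Of the endodermis and stele markers 2 of 12 rose and 2 fell by 48 h, counts near the shares of all genes, and 1 rose and 5 fell by 72 h (16.9% and 19.4% of all genes), with a summed signal of 18.4 to 33.6, 11.8 to 20.1 and 12.4 to 13 at the 3 times. CASP5 (-3.48 ± 0.42), CASP4 (-1.79 ± 0.39) and SKOR (-1.50 ± 0.45) were the largest of these falls at 72 h. There the list median was -0.86 and the highest change of the list was 1.39. Of the 6 leaf photosynthesis markers 5 fell at each time (15.8% and 19.4% of all genes), with a median of -1.74 at 72 h and a summed signal of 342 to 386, 153 to 181 and 146 to 174. The carbonic anhydrase gene CA1 fell by 5.45 ± 0.37, PRK by 2.02 ± 0.17 and RCA by 1.76 ± 0.19 at 72 h. The part of these markers in the aquaporin changes was not tested.

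Markers of seeds and pollen bear on the members known from those organs. Of 14 seed maturation markers 5 could be tested. The storage albumin genes SESA1, SESA2 and SESA5 passed the filter only through arrays of the later times and so had to be higher there. SESA5 was at least 7.99-fold higher at 72 h, a rise whose direction the filter fixed. Of the other 2, EM6 and EM1, EM6 was called higher at both times (0.68 at 72 h, adjusted p = 0.0498). EM1 was called at neither time and changed by -0.61 at 72 h, where the median of EM6 and EM1 was 0.032. The oleosin genes OLEO1 and OLEO2, the cruciferin genes CRA1, CRC and CRU2, and PER1 were above background on no array. The summed signal covers the whole list, SESA1, SESA2 and SESA5 included. It was 0.0543 to 0.0925 at 0 h, 0.516 to 1.62 at 48 h and 0.0885 to 0.41 at 72 h. TIP3-1, which could be tested only through the 0 h arrays, was lower at 72 h than at 0 h. As the filter favoured opposite times, the sum and TIP3-1 are not set against each other. Of 4 pollen markers 2 could be tested, AGP6 (0.80 ± 0.18 at 72 h, called) and ACA9, and AGP11 was above background on no array. ACA9 was at least 11.6-fold lower at 72 h, but it passed the filter only through the 0 h arrays, which fixed the direction of its fall. The summed signal of the 4 pollen markers, ACA9 included, was 0.0781 to 0.111, 0.063 to 0.0967 and 0.0582 to 0.0787 at the 3 times. The part of these markers in the result was not tested.

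Scaling the arrays in other ways changed mainly the smaller falls. The median 72 h change of all genes moved from 0.0072 to 0.23 in the deposited value table, where 65.2% of all called genes were higher, against 46.5% with the 75th percentile. There, 13 aquaporins were called lower and 3 higher at 72 h, and with quantile normalization 10 lower and 2 higher. The falls of TIP2-1, TIP2-2, TIP2-3, TIP4-1, TIP1-1, TIP1-2, PIP2-2, PIP2-4, PIP1-5 and NIP1-1 and the rises of NIP1-2 and SIP1-2 at 72 h passed the test in each of the 21 alternative settings tried. At 48 h this held for TIP2-1, TIP2-2, TIP2-3 and PIP2-4.

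**Figure D5:**
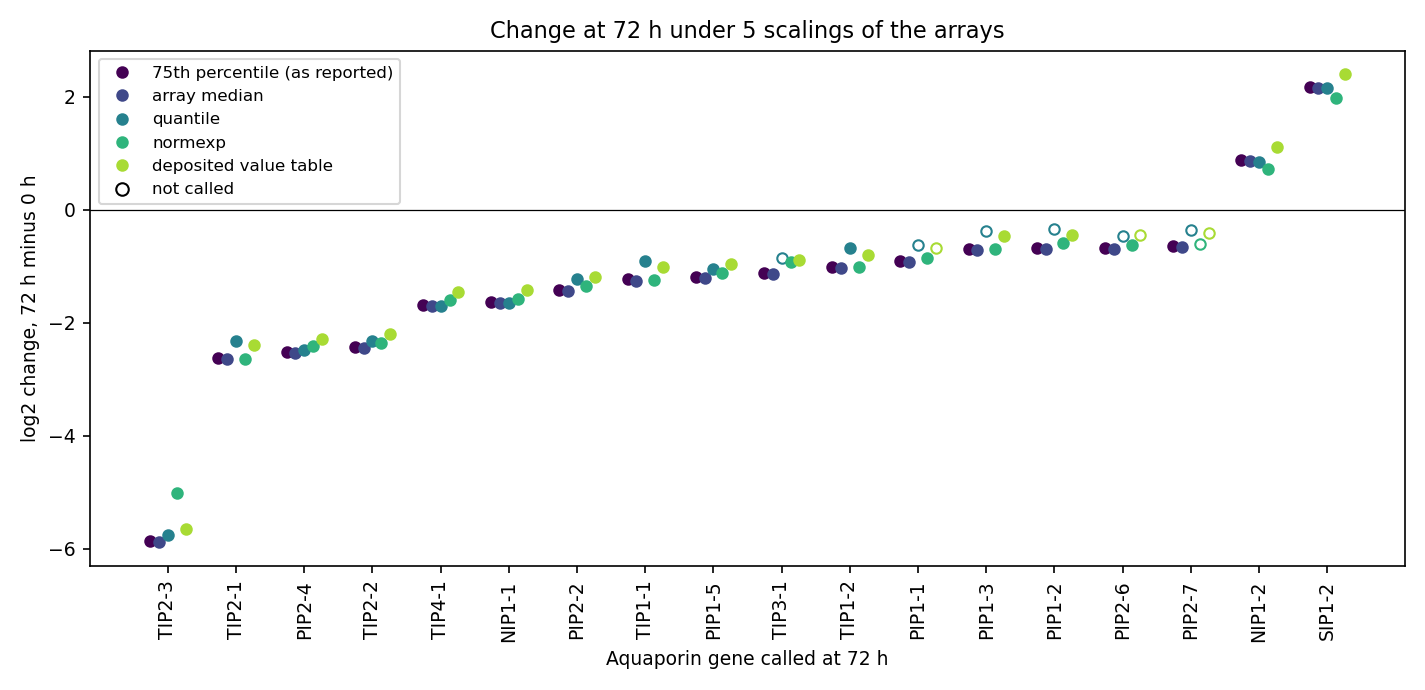
Fitted log2 change at 72 h against 0 h (vertical axis) of the 18 aquaporin genes called at that time (horizontal axis, ordered by change) under 5 scalings of the arrays, with filled points where the gene was called and open points where it was not. The open points belong to PIP1-1, PIP1-2, PIP1-3, PIP2-6, PIP2-7 and TIP3-1, and TIP2-3 stays lowest, between -5.89 and -5.01.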

How the data were processed

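Each of 9 one-colour (Cy3) arrays came with a scanner file made by the authors with Agilent Feature Extraction 9.5.3.1, per the submitters' processing notes. Its processed signal, as deposited, is an intensity corrected for background, with no scaling between arrays. Other deposited columns flag spots above background, saturated or outlying. The deposited value table holds a ratio whose scale factors are not given in the sources used here, and served as an alternative.

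Control spots and 80 outlier spots were left out, and no spot was saturated. Signals were divided by the 75th percentile of their array and taken to log2. Loci came from the deposited annotation, and the probe with the highest mean stood for a locus. A fold written as "at least" concerns a probe above background on no array of the dim group. There the dim mean was taken from the lowest signal well above background on each array, or the probe's own where higher. Changes were fitted and tested in R 4.3.3 by limma 3.58.1 (1 mean per time, all 9 arrays, two-sided, Benjamini-Hochberg over 21020 genes, 6 residual and 2.54 prior degrees of freedom), after a check on simulated data. The median standard error was 0.19 with 3 arrays per time, a number that limits precision.

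Members and lists were chosen with earlier results of these data known. All members could be named, and from each other list up to 3 called genes with the largest 72 h change. SYP121, RHD6, PRP3, SESA1, EM1 and markers above background on no array fall outside this rule and were named after their values were seen. Slides were read from the scanner files and used as batches. Same-numbered arrays of 0 h and 48 h, which share a slide, deviated together (correlations of their deviations from the group means over genes 0.255, 0.317 and 0.401). Those of 0 h and 72 h did not on every pair (0.209, -0.0096 and 0.116). The normexp alternative used median signals, since the files hold no mean signal. Gene order along the chromosomes came from the TAIR10.1 reference annotation, and no sequence was used.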

Additional observations from a re-analysis of the deposited data

Results flagged for a closer look

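TIP5-1, a pollen vacuole channel that entered no comparison, was well above background on 1 of 9 arrays, replicate 2 of 72 h, with a log2 signal of -5.82 against -8.32, -8.41 and -9.09 on the 0 h arrays. It was singled out as a signal in data that the comparisons do not use. The other arrays of 72 h were at -8.43 and -8.15, below the detection call.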

How the results depend on the processing

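Of 13 and 18 aquaporins called at 48 h and 72 h, 4 and 12 were called in each of the 21 alternatives (20 for TIP3-1), and all kept their direction. At 48 h 8 were called with quantile normalization, 8 with the deposited value table and 5 with slides 3 and 4 left out, a setting that also left 5 in the F test over the times (17 as reported). With the replicate number as a block 16 were called at 48 h (5 higher, 11 lower, 12 of them shared), where PIP1-1 was lost (adjusted p = 0.0547), and 19 at 72 h, where NIP2-1 was gained (adjusted p = 0.0468). Slide as a fixed block gave 14 and 15, and as a random block 17 and 18. Without any single array the counts were 9 to 12, 15 to 18 and, for the F test, 13 to 16. Between 48 h and 72 h the count was 0 in every setting run. Of all calls at 48 h 47.3% were higher, against 38.6% with median scaling, 39.3% with normexp, 49.5% with quantile normalization and 59.6% in the value table. Median scaling moved the median of all genes by -0.10 at 48 h, and the value table by 0.14.

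Directions turned only in members that were not called. At 48 h they did so with median scaling for PIP2-3 (-0.026), with quantile normalization for PIP2-1 (0.068), with the value table for PIP2-8 (0.12) and NIP6-1 (0.030), and without slides 3 and 4 for PIP2-3 (-0.090), PIP2-8 (0.18) and NIP5-1 (-0.20). Leaving out 1 array moved PIP2-3 to between -0.10 and 0.41, PIP2-8 to between -0.27 and 0.20, NIP6-1 to between -0.32 and 0.046, NIP5-1 to between -0.0044 and 0.35 and PIP2-1 to between -0.40 and 0.031. At 72 h they did so with median scaling for NIP5-1 (-0.0018), with normexp for PIP2-5 (-0.12) and NIP3-1 (-0.51), with the value table for NIP6-1 (0.052) and without slides 3 and 4 for NIP5-1 (-0.15). Leaving out 1 array moved NIP3-1 to between -0.26 and 0.53, NIP5-1 to between -0.18 and 0.17, PIP1-4 to between -0.081 and 0.27 and PIP2-3 to between -0.22 and 0.25. The cause was not tested.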
